A study of Mus musculus with 2 samples.

Results

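Of the peaks called in chromatin of c-Kit and Sca-1 positive mouse bone marrow cells after immunoprecipitation with anti-Usp16, 1483 lay at an annotated end of exactly 1 protein-coding gene and of no gene of another biotype. They made up 29.4% of the 5046 peaks on assembled chromosomes (exact Clopper-Pearson 95% interval 28.1 to 30.7). A gene end was the first or the last base of a gene record in RefSeq GRCm38, and a peak was taken when at least 1 of its bases lay no more than 1 kb from that base. The peak score played no part in the choice. These single-gene peaks sat at 1480 genes, because Gli1, Slc12a5 and Crebzf had 2 such peaks each.

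The cells came from Mx1 Cre:Usp16loxp/loxp mice, in which the interferon-responsive Mx1 promoter drives Cre recombinase in blood cells and other tissues and both Usp16 alleles carry loxP sites. The labels do not say whether Cre had been induced, so whether the cells still held Usp16 is not known, and age, sex and number of mice were not given. There was 1 library with anti-Usp16 and 1 with IgG, both from such cells, and the data analysed here are the 1 list of peaks deposited for the series, read as that of the anti-Usp16 library. No replicate is listed, read depth is unknown, the IgG signal was not analysed here, and a peak list cannot show whether the cells were the labelled type. All intervals below therefore cover counting error within 1 list only.

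Usp16 is a deubiquitinase that removes ubiquitin from histone H2A, a mark that Polycomb repressive complex 1 places on chromatin. Genes begin at promoters, many of which lie in CpG islands, stretches of DNA that keep a high density of CG dinucleotides and are common at genes used in most cell types. A gene's first base marks where transcription starts, and its last base marks where the transcript is cut.

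Promoters are shown first for the highest-scoring start peaks that held the whole 300-base window around the listed start (250 bases before to 50 after it), together with the highest-scoring ones among ribosomal protein genes and ubiquitin-specific proteases, the family of Usp16 itself. Each is the RefSeq GRCm38.p6 sequence just before the gene record, 5′ to 3′ on the gene's strand, and lies whole within its peak. Capitals mark matches on either strand to 10 motifs: GGGCGG (SP1 and KLF factors), CCAAT (NFY), CCGGAA (the ETS core), GCGCATGC (NRF1), TGACGTCA (the cyclic AMP response element), CACGTG (the E-box of USF and MYC), AAGATGGC (YY1), CTCGCGAG (the core of a palindromic CGCG element, here called Kaiso-type), TGANTCA (AP-1, with N any base) and TATAAA (the TATA box).
Vmn2r29: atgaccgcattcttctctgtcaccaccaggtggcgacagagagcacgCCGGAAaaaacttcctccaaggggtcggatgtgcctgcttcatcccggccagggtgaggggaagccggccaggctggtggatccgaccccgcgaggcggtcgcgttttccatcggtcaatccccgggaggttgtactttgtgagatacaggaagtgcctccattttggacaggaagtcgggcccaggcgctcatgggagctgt
Denr: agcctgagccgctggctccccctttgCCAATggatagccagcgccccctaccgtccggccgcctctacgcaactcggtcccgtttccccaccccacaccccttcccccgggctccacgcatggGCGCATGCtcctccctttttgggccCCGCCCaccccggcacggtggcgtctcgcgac
Rnf44: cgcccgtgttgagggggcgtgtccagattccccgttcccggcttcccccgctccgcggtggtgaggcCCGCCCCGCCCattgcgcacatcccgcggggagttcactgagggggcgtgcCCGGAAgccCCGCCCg
Usp31: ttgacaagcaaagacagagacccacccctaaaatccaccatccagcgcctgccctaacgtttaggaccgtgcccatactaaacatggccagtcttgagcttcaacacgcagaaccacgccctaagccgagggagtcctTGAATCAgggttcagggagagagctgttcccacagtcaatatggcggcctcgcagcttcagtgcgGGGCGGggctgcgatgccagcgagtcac
Rbm39: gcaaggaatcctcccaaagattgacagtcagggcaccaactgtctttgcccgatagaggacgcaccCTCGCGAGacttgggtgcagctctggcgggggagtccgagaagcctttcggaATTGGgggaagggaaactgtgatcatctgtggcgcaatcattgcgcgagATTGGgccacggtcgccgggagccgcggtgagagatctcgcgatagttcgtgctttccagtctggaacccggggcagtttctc
Rps7: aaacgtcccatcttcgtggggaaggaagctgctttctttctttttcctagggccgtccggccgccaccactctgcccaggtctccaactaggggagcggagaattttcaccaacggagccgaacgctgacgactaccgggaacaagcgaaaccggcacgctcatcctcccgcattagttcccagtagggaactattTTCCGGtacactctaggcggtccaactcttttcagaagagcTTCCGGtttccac
Rpl7l1: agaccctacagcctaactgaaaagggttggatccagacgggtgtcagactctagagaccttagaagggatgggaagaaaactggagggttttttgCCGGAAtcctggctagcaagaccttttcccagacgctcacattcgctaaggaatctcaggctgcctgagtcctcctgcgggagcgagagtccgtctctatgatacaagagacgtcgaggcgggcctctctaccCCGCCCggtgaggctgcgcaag
Usp3: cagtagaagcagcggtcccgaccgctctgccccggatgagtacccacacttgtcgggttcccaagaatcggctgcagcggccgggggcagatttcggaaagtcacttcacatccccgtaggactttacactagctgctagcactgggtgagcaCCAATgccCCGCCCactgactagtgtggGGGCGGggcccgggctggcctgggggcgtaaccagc
Usp30: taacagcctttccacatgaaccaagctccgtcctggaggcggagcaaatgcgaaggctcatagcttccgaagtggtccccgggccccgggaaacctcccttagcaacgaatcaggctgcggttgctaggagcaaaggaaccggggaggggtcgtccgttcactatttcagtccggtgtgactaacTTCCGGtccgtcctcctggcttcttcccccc
These sequences lie at chr7:7278290-7278539 (minus strand, 250 bases) for Vmn2r29, chr5:123907025-123907204 (plus strand, 180 bases) for Denr, chr13:54694077-54694210 (minus strand, 134 bases) for Rnf44, chr7:121707462-121707692 (minus strand, 231 bases) for Usp31 and chr2:156180239-156180488 (minus strand, 250 bases) for Rbm39. The others lie at chr12:28635954-28636203 (minus strand, 250 bases) for Rps7, chr17:46782657-46782906 (minus strand, 250 bases) for Rpl7l1, chr9:66593149-66593365 (minus strand, 217 bases) for Usp3 and chr5:114100083-114100298 (plus strand, 216 bases) for Usp30. No TATA box match occurred in any of these 9 stretches. The stretches end at the gene record, and some listed starts lie farther in. These were 116 bases inside for Rnf44, 70 for Denr, 34 for Usp30, 33 for Usp3 and 19 for Usp31. The bases just before those starts are thus not printed, and the absence of a match does not cover them. The ETS core occurred in Vmn2r29, Rnf44, Rps7, Rpl7l1 and Usp30, and the Kaiso-type core in Rbm39. A match is a description of the letters and was not tested as a site.

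The whole list held 5079 peaks, of which 33 lay on 9 contigs outside the assembled chromosomes. Of the 2466 peaks at an end of a protein-coding gene, 60.1% were single-gene peaks (58.2 to 62.1), 565 lay at ends of 2 or more coding genes and 418 at ends of a coding gene and a gene of another biotype. A further 325 lay at ends of other genes only, 1015 inside coding genes at no end and 1240 elsewhere. At the edge of the rule, the peaks just inside were 1000, 999 and 990 bp from the ends of Prelp, Gtpbp2 and Borcs5, and those just outside were 1003, 1007 and 1013 bp from the ends of Ptma, Rps27l and Rbfox2.

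The single-gene peaks sat almost wholly at the starts of genes rather than at their ends. Strand was taken from the RefSeq promoter table and was known for the genes of 1215 of the 1483 peaks. Of these 1215 peaks, 1159 were nearer to the start of transcription (95.4%, 94.1 to 96.5) and 56 were nearer to its end. For genes over 10 kb, where both ends are well apart, 865 of 896 peaks were at the start (96.5%, 95.1 to 97.6), and a two-sided exact binomial test against an equal share gave p = 9.4e-213. The rule had treated both ends alike. The side followed the strand: the peak was at the lower coordinate for 448 of 467 such genes on the plus strand and for 12 of 429 on the minus strand. Where both gene ends were more than 2 kb from the end of any other gene, 601 of 623 peaks were at the start (96.5%). The 268 peaks at genes without a listed strand divided into 147 at the lower and 121 at the upper coordinate. The test treats peaks of 1 library as independent and describes this list, not a population of samples.

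Start peaks were centred on the first base of the gene record. The midpoint offset, counted as positive inside the gene and negative outside it, had a median of -6 bp at starts, with quartiles of -116 and 149 bp. The median distance from the midpoint to the gene end, without regard to side, was 135 bp over all 1483 peaks (quartiles 58 and 299 bp), 126 bp at starts and 500.5 bp at the 56 ends of transcription. Within 250 bp of the gene end lay 70.0% of all midpoints (67.6 to 72.3), 72.1% of those at starts (69.5 to 74.7) and 14 of the 56 at ends of transcription (14.4 to 38.4%). The last 2 intervals did not overlap. The peak itself covered the first base of the gene in 84.4% of start peaks (82.2 to 86.4), and covered the last base in 37.5% of the peaks at ends of transcription (24.9 to 51.5). Peaks at ends of transcription thus lay more loosely around the gene end than start peaks did, as the plot of midpoint offsets shows.

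**Figure D1:**
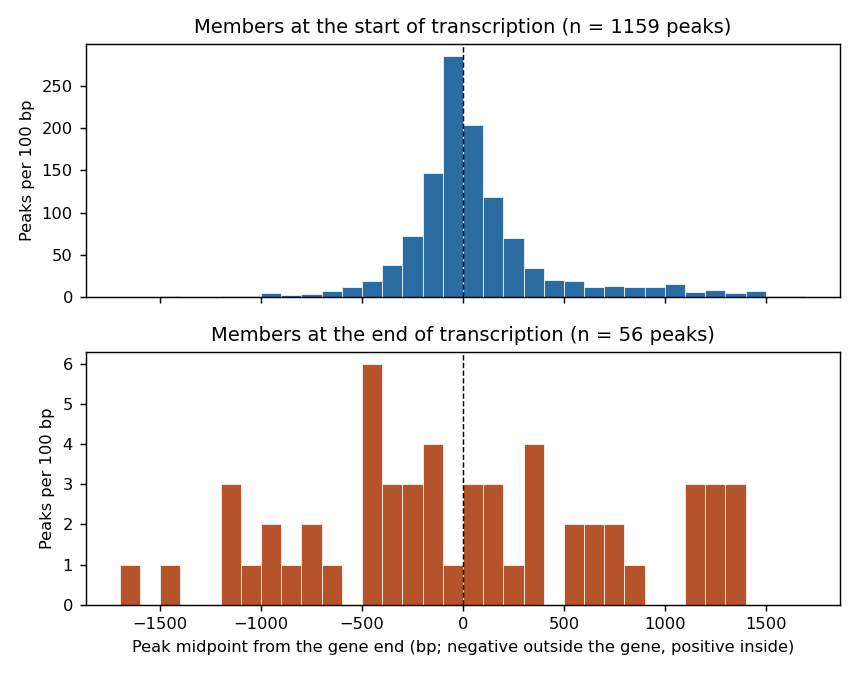
Number of single-gene peaks per 100 bp of midpoint offset from the nearer gene end (bp, negative outside the gene, positive inside), for 1159 peaks at starts of transcription (top) and 56 at ends (bottom). The dashed line is the gene end. Start peaks pile up at the line, with a median of -6 bp, and the 56 others are spread over the window.

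Midpoints fell inside and outside the gene about equally often. Of the 1483 midpoints, 706 were inside the gene (47.6%, 45.0 to 50.2), as were 561 of 1159 at starts (48.4%, 45.5 to 51.3) and 27 of 56 at ends of transcription. The side moved with the width of the peak. In the narrowest quartile group of start peaks, of 280 to 621 bp, 37.6% of midpoints were inside (32.0 to 43.4), against 56.2% in the widest quartile, of 952 to 4465 bp (50.3 to 62.0). The median offset moved from -27.5 bp in the narrowest quartile to 55 bp in the widest. Both edges moved apart, but the edge inside the gene moved farther: its median place was 249 bp after the start in the narrowest quartile and 627 bp in the widest, while the outer edge went from -305.5 to -520 bp. The side moved with the score in the opposite sense, from 52.8% inside in the lowest score quartile (46.8 to 58.6) to 41.4% in the highest (35.7 to 47.3), and these intervals overlapped slightly. The rule limits how far a midpoint can lie outside a gene, since a neighbour's end there removes the peak, and the part of that limit in these shares was not tested.

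A second start can lie within the gene record. Of the 150 start peaks with a midpoint more than 500 bp from the gene record's first base, 78 had a start of the same gene from the promoter table within 500 bp of the midpoint (52.0%, 43.7 to 60.2). The peak of Hyal2, a hyaluronidase, was such a case: its midpoint was 1084 bp inside the gene record but 206 bp before a listed start. The midpoints of Mrpl1, a mitochondrial ribosomal protein, and Setd4, a methyltransferase-family protein, lay 623 and 954 bp inside their gene records and 6 and 22 bp from a listed start. Of the 56 peaks at ends of transcription, 2 had a listed start of the gene within 500 bp.

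Single-gene peaks were broader and scored higher than peaks away from gene ends, but not higher than other gene-end peaks. Their median score was 73.2 (95% interval of the median 71.6 to 75.7) and their median width 742 bp (728 to 761). Peaks inside coding genes at no end had medians of 65.9 (64.2 to 67.5) and 604 bp (595 to 618), and peaks elsewhere 64.4 (63.0 to 66.0) and 582 bp (569 to 591). Peaks shared by 2 or more coding genes had a median score of 78.0 (74.1 to 81.3), whose interval met that of the single-gene peaks. Their median width was 859 bp (827 to 901), whose interval did not. The rule takes any overlap, so a wider peak reaches a gene end, or a second gene, more easily. How much of the width differences follows from the rule was not tested. Start peaks had a median score of 73.2 and the 56 peaks at ends of transcription 64.9 (59.9 to 77.0). Across the 1483 single-gene peaks, score was almost unrelated to gene length (Spearman rho -0.0023) and weakly related to width (rho 0.11) and to midpoint distance (rho -0.098). These correlations are over peaks of 1 library and share its depth. The lowest score listed was 50, so weaker enrichment is not in the list and the lack of a peak is not a measure of lack of signal.

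**Figure D2:**
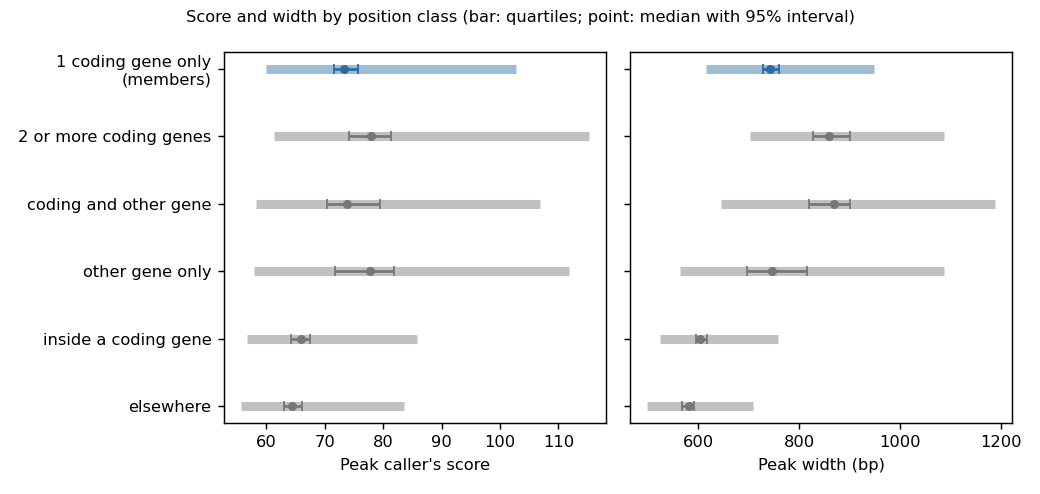
Peak caller's score (left) and peak width in bp (right) by position class. Thick bars are quartiles, and points are medians with their 95% order-statistic interval. Single-gene peaks, in blue, have a median score of 73.2 and a median width of 742 bp, above the medians of 65.9 and 604 bp for peaks inside coding genes and of 64.4 and 582 bp for peaks elsewhere.

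The highest-scoring single-gene peak was at Vmn2r29, which is annotated as a vomeronasal receptor, a class of pheromone sensor. That peak (chr7:7277583-7278757) had a score of 582, was 1175 bp wide and lay with its midpoint 119 bp inside the start of a gene record of 65.3 kb. Vomeronasal receptors are a large gene family, and how surely reads were placed at this peak was not examined. Denr, a factor for re-initiation and recycling in translation, followed with a score of 505 (chr5:123906767-123907490), 77 bp before its start. Rnf44, a RING finger protein, had 480.0 (chr13:54693634-54694895), 188 bp before its start. Usp31, a ubiquitin-specific protease, had 437 (chr7:121707356-121707757), in a peak of 402 bp whose midpoint was 95 bp before its start. All 4 peaks covered the first base of their gene.

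The other 6 of the 10 highest scores ran from 381 to 320.4. Xkrx, an X-linked relative of the XK membrane protein, had a score of 381 (chrX:134149912-134150419) and was the only one of the 10 at an end of transcription, 1128 bp inside its gene. Etnk1, ethanolamine kinase, had 337 (chr6:143166568-143167271), with its midpoint 53 bp inside its start. Hyal2 had 333 (chr9:107568513-107569401). Rbm39, a splicing factor, had 326 (chr2:156179903-156180794), 110 bp before its start. Gpx8, a peroxidase of the endoplasmic reticulum, had 324 (chr13:113046141-113046784), 32 bp before its start. Cenpu, a centromere protein, had 320.4 (chr8:46551544-46552294), 100 bp before its start. Of these 10 genes, 8 had the first base of the gene inside the peak, and Xkrx and Hyal2 did not.

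Genes at single-gene peaks were of middle length. Their median length was 22.2 kb (quartiles 9.69 and 49.4 kb), against 17.2 kb for all 21887 coding genes, 17.0 kb for the 18854 without a peak at an end, and 15.6 kb for the 1553 whose end peaks were all shared. Of all coding genes, 6.76% were the only gene at such a peak. By length, the share was 1.08% of genes up to 1 kb (0.629 to 1.72), 5.92% from 2 to 5 kb, 8.23% from 20 to 50 kb (7.49 to 9.02), 8.27% from 50 to 100 kb and 5.56% above 200 kb (4.21 to 7.17). The share of genes with any peak at an end was highest, at 17.3%, for genes of 10 to 20 kb. The share of genes with no other gene end within 2 kb of either end differed with length too. It was 88.6% up to 1 kb, where the share at single-gene peaks was lowest, 47.2% from 5 to 10 kb and 65.2% above 200 kb. Its part in the length pattern was not tested. The 1110 olfactory receptors, of median length 0.95 kb, had no single-gene peak. Their part in the low share of the shortest genes was not tested either. The shortest genes were the histone genes H4c6 (0.383 kb, score 77.4), H4c14 (0.384 kb, score 69.3) and H4c4 (0.402 kb, score 56.5), copies of 1 multigene family, so reads may be shared among them. The longest were Wwox, an oxidoreductase gene (913 kb, score 172), Etl4 (900 kb, score 53.8) and Cdkal1, a tRNA-modifying enzyme (664 kb, score 108).

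**Figure D3:**
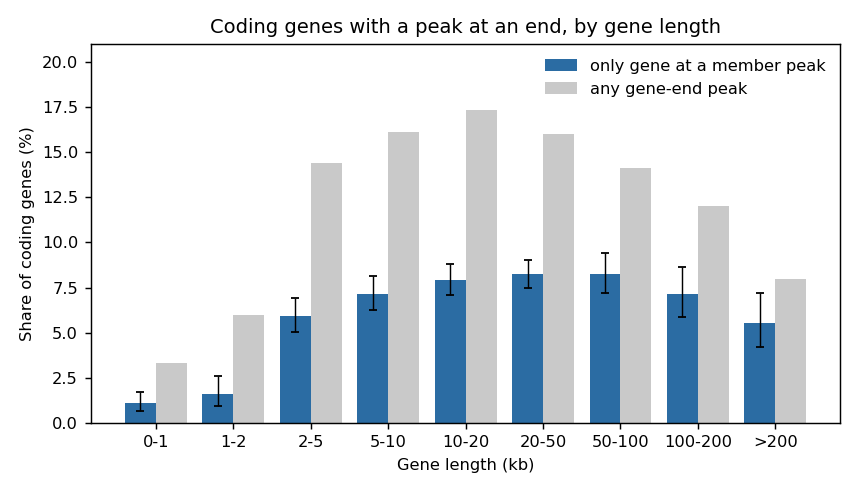
Share of coding genes (%) by gene length (kb). Blue bars are genes that are the only gene at a single-gene peak, with exact 95% intervals, and grey bars are genes with any peak at an end. The blue share rises from 1.08% for genes up to 1 kb to 8.27% for genes of 50 to 100 kb and is 5.56% above 200 kb.

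The promoters under start peaks were rich in CpG. In the 300-base promoter (250 bases before and 50 after the listed start), the ratio of observed to expected CG dinucleotides had a median of 0.80 at the 1157 genes with a start peak, against 0.49 at 14963 genes with no peak at either end. A ratio of 0.6 or more was found for 82.4% of the first (80.0 to 84.5) and for 42.9% of the others (42.1 to 43.7). GC content had medians of 59.7% and 55.3%. The whole 300-base window lay inside the peak for 884 of 1159 start peaks (76.3%, 73.7 to 78.7). Promoters of genes whose end peaks were all shared were not set apart, here or for the motifs below. These sequence traits can therefore not be called particular to single-gene peaks.

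Some motifs occurred more often under start peaks than at genes with no gene-end peak, even among CpG-rich promoters, and others did not. The ETS core CCGGAA, recognised by ETS family factors, occurred in 35.4% of promoters under start peaks (32.6 to 38.2), in 16.2% of promoters of genes with no gene-end peak (15.6 to 16.8) and in 19.1% of all 17492 promoters. Among promoters with a CpG ratio of 0.6 or more, the first pair became 38.2% (35.1 to 41.4) and 28.1% (27.0 to 29.2). Its longer form CCGGAAGT, which contains the core, occurred in 13.6% (11.5 to 16.0) against 7.59% (6.95 to 8.26) of the CpG-rich promoters. It was in 9.07% of all CpG-rich promoters and 5.28% of all promoters. The YY1 motif occurred in 7.24% (5.68 to 9.07) against 4.52% (4.02 to 5.06), and in 3.21% of all promoters. The GC box GGGCGG went the other way once CpG content was held high: 64.4% against 43.7% over all promoters but 68.5% (65.5 to 71.5) against 76.5% (75.5 to 77.6) among CpG-rich ones. The TATA box was in 7.43% against 14.4% over all promoters, and in 6.82% (5.30 to 8.61) against 5.67% (5.12 to 6.27) of CpG-rich ones. CCAAT was in 37.9% against 39.2%, and in 39.2% of all promoters. The GC box and the TATA box occurred in 46.3% and 13.3% of all promoters. CpG-rich promoters under start peaks had a lower median GC content (61.0%) than CpG-rich promoters without a peak (65.0%), and the part of GC content in these shares was not tested.

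**Figure D4:**
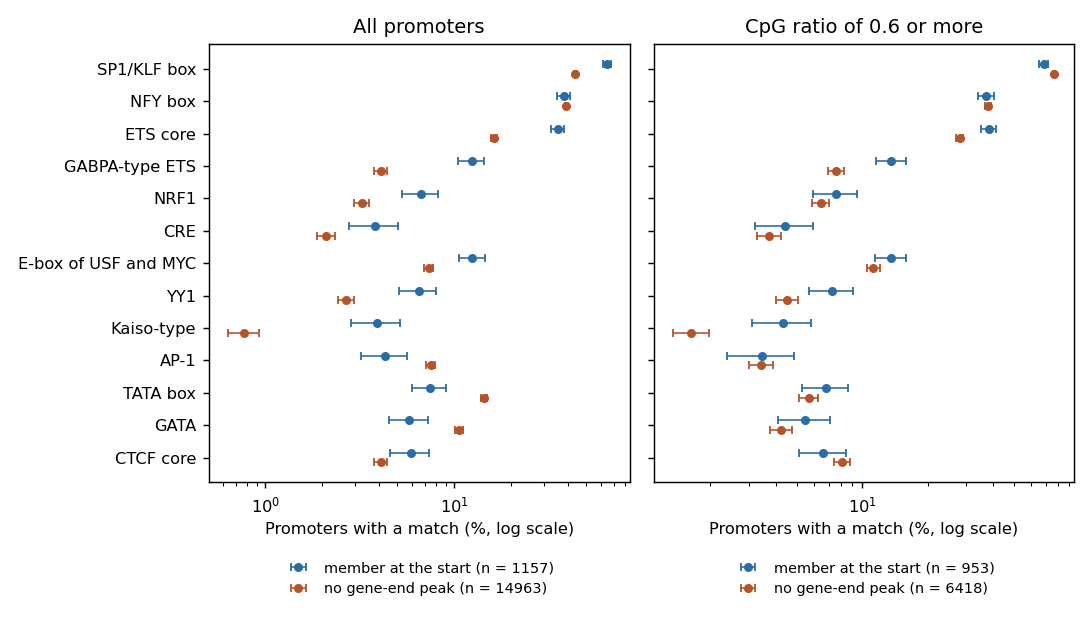
Share of 300-base promoters with a match on either strand (%, log scale), for all promoters (left) and those with a CpG ratio of 0.6 or more (right). Blue points are genes with a single-gene start peak and brown points genes with no gene-end peak, with exact 95% intervals. The ETS core (38.2% and 28.1%), the YY1 motif and the Kaiso-type core (4.30% and 1.64%) are apart in the right panel, and the SP1/KLF box lies lower for start peaks there (68.5% and 76.5%).

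The Kaiso-type core CTCGCGAG, for which Kaiso and BANP are the named binding proteins, was rare but went with the peak score. It occurred in 45 of 1157 promoters under start peaks (3.89%, 2.85 to 5.17), in 0.769% of promoters without a gene-end peak and in 1.31% of all promoters. Among CpG-rich promoters the shares were 4.30% (3.10 to 5.79) and 1.64% (1.34 to 1.98). Start peaks with a match had a median score of 109.5, against 72.4 for the 1114 without. By score quartile, 1 of 290 start peaks had a match in the lowest (0.345%, 0.0087 to 1.91), 7 of 290 in the second, 11 of 289 in the third and 26 of 290 in the highest (8.97%, 5.94 to 12.9). The highest-scoring carriers after Rbm39 were Nsun3, an RNA methyltransferase of mitochondria, with 226, Ankfy1, an endosomal protein, with 211.0, Rps19 with 182, and Adnp, a zinc-finger homeobox protein, with 177. These 4 were picked by score after their matches were seen. The median place of the core was 46 bases before the listed start (quartiles -69 and -22) and 80.5 bp from the peak's midpoint, no nearer than the centre of the promoter window (79.5 bp).

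For the other motifs searched, the intervals overlapped among CpG-rich promoters. The NRF1 motif was in 7.56% of those under start peaks against 6.44% of those without a peak (6.50% of all CpG-rich promoters). The cyclic AMP response element was in 4.41% against 3.74% (3.87% of all CpG-rich ones) and the E-box in 13.5% against 11.2% (11.5%). The AP-1 motif was in 3.46% against 3.43% (3.43% of all CpG-rich ones). GGGGGCGC, a part of the CTCF site, was in 6.61% against 8.10% (7.68% of all CpG-rich ones). Absence of a match says only that these letters are not in the window.

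As a ratio, the ETS motifs moved less with the score, and in percentage points the ETS core moved more. The ETS core was in 28.3% of start peaks in the lowest score quartile (23.2 to 33.8) and in 44.8% in the highest (39.0 to 50.8). The longer ETS form went from 7.93% (5.09 to 11.7) to 17.9% (13.7 to 22.8). The GC box went from 69.7% (64.0 to 74.9) to 60.3% (54.5 to 66.0), with overlapping intervals. The GATA motif AGATAA, which blood-forming GATA factors recognise, was in 5.86% of both the lowest and the highest quartile. It was in 5.79% of promoters under start peaks against 10.6% of those without a gene-end peak and 9.94% of all promoters, but among CpG-rich promoters in 5.46% (4.10 to 7.09) against 4.24% (3.76 to 4.76).

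Recurring symbol families included ribosomal proteins, translation factors, splicing factors, Mediator and TFIID subunits, proteasome subunits and nucleoporins. Of 40 gene lists defined by symbol, 34 had a member, and for 13 lists the exact 95% interval of the share lay above the 6.76% over all coding genes, for 5 below it, and for 22 it held that value. The rule favours genes without close neighbours, and of the genes with any peak at an end, 48.8% were the only gene at a single-gene peak. Against that value, the share was 41.7% for mitochondrial ribosomal proteins, 38.9% for respiratory chain and ATP synthase subunits, 47.4% for DEAD and DEAH box helicases, 48.5% for splicing factors, 51.6% for initiation and elongation factors, 53.9% for Zfp genes, 55.6% for lysine demethylases and methyltransferases, 57.7% for Rab and Vps genes, 63.2% for Mediator and TFIID subunits, 78.6% for proteasome subunits and 81.8% for nucleoporins and importins. The 6.76% covers all coding genes, among them 1110 olfactory receptors with no single-gene peak, and was not limited to genes with CpG-rich promoters. The part of promoter CpG content in the list shares was not tested. No set test was made, and genes of 1 family are not independent of each other.

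**Figure D5:**
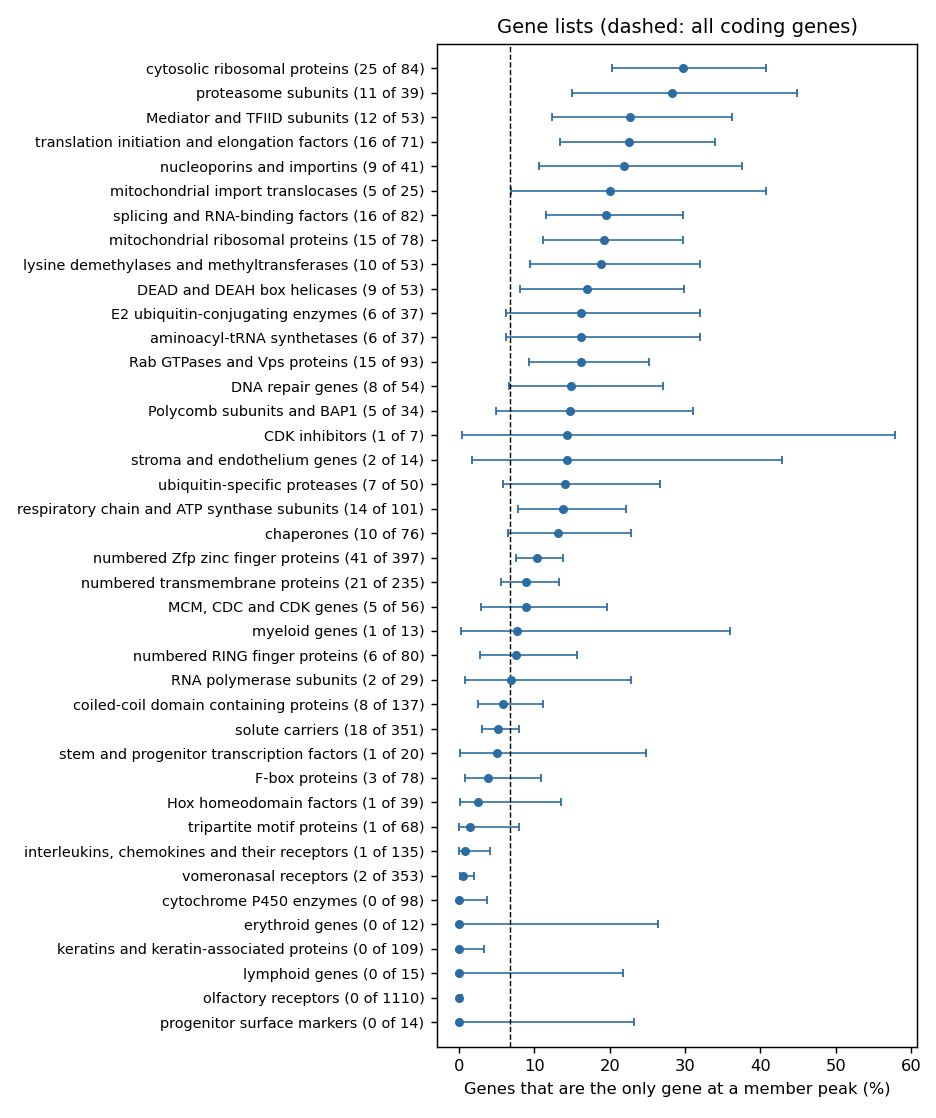
Share of the genes in each of 40 lists that are the only gene at a single-gene peak (%), with exact 95% intervals and the counts beside each name. The dashed line is the 6.76% of all coding genes. Cytosolic ribosomal proteins (29.8%) and proteasome subunits (28.2%) have the highest shares, and olfactory receptors have 0 of 1110.

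Among genes of translation, 25 of 84 cytosolic ribosomal proteins had a single-gene peak (29.8%, 20.3 to 40.7). All 17 with a known strand had it at the start. The highest scores were 251 at Rps7, 188 at Rpl7l1, a ribosomal protein L7-like gene, 182 at Rps19 and 172 at Rps3a1. The median score of the family, 70.2, was close to the 73.2 of all single-gene peaks. With shared peaks counted, 53 of the 84 genes had a peak at an end (63.1%), against 3033 of all 21887 coding genes. Of those 53, 47.2% were the only gene at a single-gene peak, near the 48.8% background. Only 26.2% of these genes had no other gene end within 2 kb, against 55.1% of all coding genes. Ribosomal protein genes have many processed copies elsewhere, and whether these affect the placing of reads at the start peaks was not tested. Of the mitochondrial ribosomal proteins, 15 of 78 had a single-gene peak (19.2%, 11.2 to 29.7), with a median score of 96.8. Mrpl3 scored 222, Mrpl39 157, Mrpl1 150.6 and Mrpl19 141. Of the initiation and elongation factors, 16 of 71 did (22.5%, 13.5 to 34.0), led by Eif3f (232) and Eif3b (167), subunits of the initiation factor that loads the small ribosomal subunit, then Eif4a3 (142), a helicase of the exon junction complex, and Eif5 (102). For aminoacyl-tRNA synthetases the count was 6 of 37 (16.2%, 6.19 to 32.0), with Rars at 92.4, Farsb at 83.8, Dars at 74.7 and Tars at 63.7, and its interval held the background.

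Among genes of RNA processing and transcription, 16 of 82 splicing and RNA-binding factors with Sf3, Snrp, Srsf, Hnrnp, Lsm, Prpf or U2af symbols had a single-gene peak (19.5%, 11.6 to 29.7). The Rbm genes are not in this list; 8 of 38 had a single-gene peak (21.1%, 9.55 to 37.3), the highest at Rbm39 and Rbm25 (221). Within the list, Snrpa1 scored 154 and Snrpb2 124, both parts of the U2 particle that marks the branch point, Sf3a3 scored 138 and Lsm6 135. Of the DEAD and DEAH box helicases, which unwind RNA, 9 of 53 did (17.0%, 8.07 to 29.8), with Ddx18 at 195, Dhx33 at 157, Dhx16 at 146 and Ddx20 at 116. Of Mediator and TFIID subunits, which link transcription factors to RNA polymerase II, 12 of 53 did (22.6%, 12.3 to 36.2). Med23 scored 228, Med6 206, Taf15, an RNA-binding protein of the FET family, 150.5 and Med18 130.1. The RNA polymerase subunits had 2 single-gene peaks of 29 (6.90%), at Polr2e (164) and Polr3a (121). Once shared peaks were counted, 13 of the 29 had a peak at an end, against 3033 of all 21887 coding genes. Of the numbered Zfp zinc finger genes, which encode DNA-binding proteins, 41 of 397 had one (10.3%, 7.51 to 13.7). Their median score was 62.8, and 29 of the 41 midpoints lay inside the gene. Zfp11 scored 132, Zfp768 125, Zfp949 118 and Zfp566 116. The Hox factors had 1 of 39, Hoxc10 (71.6).

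Among genes of protein turnover, the interval of the proteasome list alone lay above the background. Of the proteasome subunits, 11 of 39 had a single-gene peak (28.2%, 15.0 to 44.9), and their median score was 131. Psmb2, a subunit of the catalytic core, scored 192, and Psmd1 (163), Psmd3 (156) and Psmc1 (143), parts of the cap, followed. With shared peaks counted, 14 of the 39 proteasome genes had a peak at an end, against 3033 of all 21887 coding genes. Of these 14, the 11 above were single. Of the ubiquitin-specific proteases, 7 of 50 did (14.0%, 5.82 to 26.7), an interval that held the background. Beside Usp31 these included Usp3 (125), which also acts on histone H2A, Usp30 (110.5), a mitochondrial deubiquitinase, and the X-linked Usp9x (81.4). The E2 ubiquitin-conjugating enzymes had 6 of 37 (16.2%, 6.19 to 32.0), with Ube2j2 at 143.5, Ube2g2 at 141, Ube2f at 105 and Ube2r2 at 60.1. Numbered RING finger proteins had 6 of 80, with Rnf6 at 104, Rnf216 at 87.2 and Rnf7 at 80.5 after Rnf44. F-box proteins had 3 of 78, at Fbxw8 (130.1), Fbxo36 (64.4) and Fbxo46 (56.1), and tripartite motif proteins 1 of 68, Trim37 (51.8), which is itself a ligase of histone H2A. Chaperones had 10 of 76 (13.2%, 6.49 to 22.9), led by Dnajc16 (253), Hspa4 (162) and Dnajc24 (133).

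Among chromatin genes, 10 of 53 lysine demethylases and methyltransferases with Kdm, Kmt, Setd, Ehmt, Nsd or Prdm symbols had a single-gene peak (18.9%, 9.44 to 32.0). Kdm1a, which removes methyl groups from histone H3, scored 137, and Prdm4 (89.8), Kdm3b (83.0) and Setd4 (77.3) followed. Setdb1, a histone H3 methyltransferase outside these symbols, scored 165. Of the Polycomb subunits and BAP1, which belong to the machinery around the mark that Usp16 removes, 5 of 34 did (14.7%, 4.95 to 31.1), an interval that held the background. These included Jarid2 (123), Eed (91.4), Mtf2 (73.1) and Phc1 (61.3). DNA repair genes had 8 of 54 (14.8%, 6.62 to 27.1), among them Ercc2 (144), Xrcc5 (95.7) and Ercc1 (71.2). Of the MCM, CDC and CDK genes of the cell cycle, 5 of 56 did (8.93%), with Cdc16 at 135, Cdk4 at 77.4, Cdk7 at 52.7 and Cdk1 at 51.5. The CDK inhibitors had 1 of 7, Cdkn2d, at 50.1 just over the lowest score listed, and Cdkn1a and Cdkn1b had no single-gene peak.

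Mitochondrial, transport and membrane genes divided. Respiratory chain and ATP synthase subunits had 14 of 101 (13.9%, 7.79 to 22.2), led by Cox6c (147), Ndufaf1 (142), Ndufa9 (116) and Ndufc2 (114.5). Ndufaf1, in the list by its symbol, is an assembly factor and not a subunit. Import translocases had 5 of 25, with an interval (6.83 to 40.7%) that began barely above the 6.76% background. Tomm22 scored 98.8, Timm22 92.7, Timm17a 81.0 and Tomm5 68.2. Of the translocase genes with any peak at an end, 41.7% were the only gene at a single-gene peak. Nucleoporins and importins had 9 of 41 (22.0%, 10.6 to 37.6), but with a low median score of 58.4: Kpna6 scored 88.5, Nup85 76.1, Nup43 60.9 and Nup93 60.4. Rab GTPases and Vps proteins, most of which direct vesicles, had 15 of 93 (16.1%, 9.32 to 25.2), with Vps13d at 177, Rab33b at 174, Vps72, a subunit of complexes that place histone H2A.Z, at 153 and Rab7 at 106. Solute carriers with a symbol of the form Slc, number, a, number, or Slco had 18 of 351 (5.13%, 3.07 to 7.98), led by Slc39a3 (177), Slc4a3 (153), Slc11a1 (147) and Slc25a23 (114). Slc35b1, a nucleotide sugar transporter outside that pattern, had 175. Numbered transmembrane proteins had 21 of 235 (8.94%, 5.62 to 13.3), led by Tmem242 (262), Tmem101 (214), Tmem260 (142) and Tmem41b (140.4), and coiled-coil domain proteins 8 of 137 (5.84%), led by Ccdc124 (231), Ccdc126 (93.0), Ccdc90b (76.7) and Ccdc142 (70.6).

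The lists of genes that mark blood cell types were too small to be set apart from the 6.76% background, which the intervals of all 5 held. Progenitor surface markers had 0 of 14, erythroid genes 0 of 12 and lymphoid genes 0 of 15. None of these genes had any peak at an end, against 3033 of all 21887 coding genes. A count of 0 in a list this small still allows a share of up to 21.4% of the surface markers. Cd27, Cd34, Alas2, Ank1 and Bcl11b were among the genes without a peak. Stem and progenitor transcription factors had 1 of 20, Nkap (113), a repressor needed by blood stem cells, while Bmi1 and Cbfb had none. Myeloid genes had 1 of 13, Cebpa (92.5), the granulocyte lineage factor, while Camp and Cd68 had no single-gene peak. Genes of stroma and endothelium had 2 of 14, Col1a1 (60.1) and Pdgfra (57.1), while Acta2 and Adipoq had none.

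The large families of sensory and tissue-specific genes lay below the background. Olfactory receptors had 0 of 1110 (up to 0.270%), keratins and keratin-associated proteins 0 of 109 (up to 2.75%) and cytochrome P450 enzymes 0 of 98 (up to 3.06%). Interleukins, chemokines and their receptors had 1 of 135, Il31ra (61.1). Vomeronasal receptors had 2 of 353 (0.567%, 0.0687 to 2.03), Vmn2r29 and Vmn2r4. Vmn2r4 scored 129.8 in a peak of 348 bp, 916 bp inside its gene record. Coding genes known only by a Gm or Rik symbol had 29 of 1750 (1.66%, 1.11 to 2.37), against 7.21% of coding genes with other symbols. By letter stem, the most frequent were Zfp with 41 genes, Tmem with 22, Slc with 20, Rpl with 14, Eif with 13 and Rps with 10, then Vps, Mrpl, Wdr and Gm with 9 each. Read against family size these fall apart, from 26.4% of 53 Rpl genes and 25.7% of 35 Vps genes to 5.33% of 375 Slc genes and 0.677% of 1329 Gm genes. Of 114 stems with 20 or more coding genes, 28 had no member.

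By chromosome, the share of coding genes at a single-gene peak was 0 of 256 on the Y and 2.80% of 966 on the X (1.85 to 4.04), against 4.70% to 8.36% on the autosomes. The X held 91 peaks in all, and 27 of them were single-gene peaks (29.7%, 20.5 to 40.2), close to the 29.4% over all chromosomes.

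The peaks at ends of transcription and at the far edges of the window were few. After Xkrx, the highest-scoring peaks at an end of transcription were at Slc4a3, an anion exchanger (153, midpoint 239 bp past the end), Gm46933 (149.9, 707 bp inside), Slc11a1, a metal transporter of macrophages (147, 958 bp past the end), and 9830107B12Rik (124, 1319 bp inside). The midpoints farthest outside a gene were at H3f3b, a histone H3.3 gene (1658 bp, in a peak of 4557 bp), Actg1, cytoplasmic actin (1470 bp, in a peak of 3079 bp), and Cbarp (1466 bp), the first pair of them at ends of transcription. The farthest inside were at Gli1, a transcription factor of Hedgehog signalling (1684 bp), Gtpbp2 (1642 bp) and Fuz (1612 bp), and the last 2 lay 163 and 162 bp from a listed start. Among the midpoints that fell on the gene's end itself, at 0 bp, were those of Aasdh, Ndufc2, Nol7 and Pip5kl1.

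The 3 genes with 2 single-gene peaks had both beside the same end. At Crebzf, a leucine-zipper protein, peaks of score 119.5 and 91.0 lay 71 and 710 bp before the start. At Slc12a5, a potassium-chloride transporter, peaks of 51.4 and 51.3 lay 88 bp before and 1073 bp inside the start. At Gli1, whose strand was not listed, peaks of 53.4 and 50.1 lay 1684 bp inside and 589 bp outside its upper end.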

How the data were processed

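The sources were 1 list of peaks for the anti-Usp16 library (1 library, beside 1 IgG library whose signal was not analysed here) and RefSeq tables of GRCm38.p6, which is the assembly known as mm10. Per the file headers, the peaks were called with MACS in Galaxy and deposited with a score, the peak caller's value per peak, used only within the list. Bowtie, Picard and mm10 are named in the submitters' processing notes, while settings of MACS and how IgG entered the call were not given in the sources used here. Duplicate handling, mappability and the score minimum of 50 can all change which peaks are listed.

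After conversion to 1-based coordinates, peaks were compared with the ends of 49943 gene records (21887 coding). Strand and the 300-base promoters came from the RefSeq promoter table by gene ID (17492 coding genes, 79.9%). When several starts were listed, the promoter nearest to the gene record's first base was used. Genes on chromosome 18 have no promoter sequence printed here. Printed sequences were ended at the gene record, which left out the one of Hyal2, whose listed start lies inside it. The promoter window of Etnk1 reached past its peak, so it was not among those chosen. Shares have exact Clopper-Pearson 95% intervals, medians order-statistic intervals, and the limit for a count of 0 is 3 counts of the total. The start-against-end test was a two-sided exact binomial test (scipy 1.17.1, with pandas 2.3.3 and Python 3.11.15). The peak classes were checked on simulated data.

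The members, lists, motifs and naming rule were chosen with earlier results of these data known. Named genes were the 10 highest scores, up to 4 highest-scoring members of each list, up to 2 genes without a single-gene peak for lists of 20 or fewer genes, genes with 2 such peaks, the 3 shortest and longest genes, and the 3 closest and farthest midpoints. A few genes named by it were left out of the text. The 5 highest-scoring peaks at ends of transcription and carriers of the Kaiso-type core were named in addition, after their values were seen. Alternatives were windows of 500 bp and 2 kb, the midpoint in place of overlap, scores at or above the median, genes of other biotypes ignored, Gm and Rik genes left out, chromosomes X and Y left out and genes of any length.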

Additional observations from a re-analysis of the deposited data

Results flagged for a closer look

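The list holds 33 peaks on 9 contigs outside the assembled chromosomes, which no comparison above uses. They were singled out only because they lie in data left out of the comparisons, and no control level stands beside them.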

How the results depend on the processing

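The alternatives gave 81 values for the main results, and 74 of them stayed within the interval or 1.5 times the main value. The start-against-end share kept its direction and its side of the threshold in all 10 alternatives tried, from 94.2% with the window of 2 kb to 97.3% with the window of 500 bp or the higher-scoring peaks. With the window of 2 kb the median midpoint distance was 155 bp in place of 135 bp. Ignoring genes of other biotypes raised the share of peaks on assembled chromosomes to 36.7%. Keeping only peaks at or above the median score left 820 single-gene peaks, 32.6% of those peaks, with a median score of 97.2, a median width of 767 bp and the Kaiso-type core in 6.33% of start promoters. The first value and the score follow from the smaller set, and for the others the cause was not tested. Of 14 lists followed, 10 kept their side of the background, recomputed in each setting, throughout. Mitochondrial import translocases, whose interval began at 6.83% against the 6.76% background, were not among the lists followed. Solute carriers stayed at the background. With the higher-scoring peaks, whose background was 3.74%, Zfp genes (14), nucleoporins (2) and respiratory chain subunits (7) no longer lay above it, nor did respiratory chain subunits with the window of 2 kb (12). Ubiquitin-specific proteases lay above it with other biotypes ignored (9). The nearest listed start, the absence of neighbouring ends and CpG-rich promoters only were alternatives chosen after seeing the data. No paired analysis was possible because there is 1 library per antibody and 1 peak list. Leaving out a replicate was not possible for the same reason. Read depth is unknown, so no peak's precision can be given, and a missing peak may lie below the score minimum.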
